A study of Homo sapiens with 22 samples.

Results

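The non-receptor tyrosine phosphatases examined here were 10 genes of the PTPN family, PTPN1, PTPN2, PTPN4, PTPN9, PTPN11, PTPN12, PTPN13, PTPN14, PTPN21 and PTPN23, taken by name from 20668 gene symbols. The 10 were part of 15 PTPN symbols listed, and all 10 passed the filter on low values (0.5 RPKM or more in 2 or more samples) that kept 12713 genes. RNA was sequenced from MDA-MB-231, a triple-negative breast cancer (TNBC) cell line derived from a breast adenocarcinoma. Cells were kept without phenol red in charcoal-stripped serum, which removes steroids, for 3 days in every group, and then received vehicle, 100 nM dexamethasone (Dex) for 2 h or 4 h, or 10 μM Compound A (CpdA) for 2 h or 4 h. Dex is a synthetic glucocorticoid that activates the glucocorticoid receptor (GR), and CpdA is a ligand described as a selective GR modulator. Each of the 5 groups had 2 samples. The labels gave vehicle no time point, but its file headers carry 2 h for replicate 1 and 4 h for replicate 2. Both vehicle samples served as reference for every treatment, so the spread of vehicle may include time. The study asked which genes the 2 ligands regulate, and PTPN1 was among the genes that it singled out.

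Protein tyrosine phosphatases remove phosphate from tyrosine residues and so oppose tyrosine kinases. The PTPN genes encode the intracellular members, which lack the transmembrane segment of the receptor type. PTPN1 encodes the enzyme that dephosphorylates the insulin receptor and JAK2 from the surface of the endoplasmic reticulum, and PTPN2 is its closest relative, acting on JAK1, JAK3 and STAT proteins. PTPN11 carries SH2 domains and, unlike most phosphatases, promotes signalling from growth factor receptors to Ras. PTPN12 acts on the adhesion proteins BCAR1 and PXN and restrains cell migration. PTPN4, PTPN13, PTPN14 and PTPN21 share a FERM domain that holds them at the membrane or cytoskeleton, and PTPN14 also restrains the Hippo effector YAP1. PTPN9 carries a lipid-binding domain of the Sec14 type, and PTPN23 works with the ESCRT machinery that sorts receptors for degradation.

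GR binds DNA as a dimer at pairs of TGTTCT half-sites facing each other, written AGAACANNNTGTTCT in full. The 250 bases before the RefSeq start were searched on both strands in the 9 members with an entry (GRCh38.p14), and PTPN11 had none. None of the 9 held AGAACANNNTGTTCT, its core ACANNNTGT or a single TGTTCT half-site, which were present in 0.004%, 4.684% and 12.441% of all 27305 promoters, the full motif containing both others. The AP-1 motif TGANTCA was in 6.596% of promoters and, of the 9, in PTPN9 alone, beginning at base -46. The windows of PTPN1 and PTPN13 are shown because these members rose with Dex, and they hold no capital letters because no motif was matched. Both were 69.2% G and C, against a median of 58.0% over all promoters. The PTPN2 window, on chromosome 18 from 12840963 to 12841212, was 35.2% G and C. On GRCh37 the PTPN2 gene runs from 12785477 to 12929642 on the minus strand. The RefSeq start may therefore lie within the gene, although the 2 builds differ in coordinates. The search that follows uses the GRCh37 gene start instead. Whether the RefSeq start of PTPN2 is used in these cells was not tested.
PTPN1, chr20:50510133-50510382, plus strand: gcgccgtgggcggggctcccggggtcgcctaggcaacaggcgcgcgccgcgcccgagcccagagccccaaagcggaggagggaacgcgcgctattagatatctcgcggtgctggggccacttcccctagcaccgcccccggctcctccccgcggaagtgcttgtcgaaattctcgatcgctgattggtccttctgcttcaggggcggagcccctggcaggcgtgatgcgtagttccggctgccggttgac
PTPN13, chr4:86594065-86594314, plus strand: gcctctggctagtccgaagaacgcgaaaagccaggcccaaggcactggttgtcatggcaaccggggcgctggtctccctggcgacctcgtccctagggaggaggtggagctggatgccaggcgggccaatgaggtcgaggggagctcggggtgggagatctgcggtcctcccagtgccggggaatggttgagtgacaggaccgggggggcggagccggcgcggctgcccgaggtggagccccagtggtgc

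A looser form, GNACANNNTGTNC, was searched on GRCh37 across each gene and the 10000 bases before it. Over 10998 protein-coding genes it occurred 1.3 times per 100000 bases, and 47.8% of the genes held it. PTPN1, on chromosome 20 from 49126858 to 49201778, and PTPN12 held none, and the other 8 members held 1 or 2 each. The full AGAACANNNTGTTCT was in 1.6% of the genes and in 0 of 10 members. The matches in PTPN13, PTPN14 and PTPN4, the relatives of PTPN1 called at Dex 4 h, all lay in introns and are printed with the matched letters in capitals. A match is a stretch of letters and was not tested for binding. By ChIP, the study reported that Dex induced GR binding at a response element of PTPN1, and that CpdA did not. The ChIP samples were not analysed here. Exact matches in these windows leave out other forms of the motif and sites farther away. The lack of a match therefore does not show that PTPN1 lacks a GR site.
PTPN13, chr4:87536528-87536554, plus strand: agcacagGTACATAGTGTTCttaatta
PTPN14, chr1:214616532-214616558, minus strand: cttcataGTACAAGTTGTCCaaataca
PTPN14, chr1:214672570-214672596, minus strand: gttacgtGCACAGACTGTCCacataac
PTPN4, chr2:120732223-120732249, plus strand: ccagcttGTACATCTTGTGCccctgat

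The samples held an estimated 51250000 to 62100000 mapped reads, a depth recovered from the RPKM steps of short transcripts. RPKM, the read count scaled to transcript length and library depth, is a level per length and can be set beside that of another gene. The GR targets TSC22D3, FKBP5 and PER1 were all higher in the 4 Dex samples than in the other 6, TSC22D3 at 302 to 315 RPKM against 8.22 to 12.4. They also rose against vehicle with CpdA, by far less. On the log2 scale PER1 rose by 1.22 at CpdA 2 h and 0.82 at 4 h, and TSC22D3 by 0.44 and 0.27. FKBP5 passed at CpdA 4 h only, at 0.28 (adjusted p = 0.03 or less by limma for each). NR3C1, which encodes GR itself, was at 9.96 to 14.7 RPKM with Dex and 20.4 to 25.5 otherwise. All 5 mesenchymal markers were present (VIM 1270 to 1460 RPKM), and the leukocyte markers PTPRC and CD3E were at or under 0.063 RPKM with CD14 at 2.17 to 2.89. Of 6 luminal or hormone receptor markers ESR1, PGR and FOXA1 were at or under 0.225 RPKM, and ERBB2, GATA3 and EPCAM were detected, ERBB2 at 15.9 to 21.6 RPKM. A single library stood apart. In Dex 4 h replicate 1, 949 genes with transcripts of at least 8000 bases had a median log2 value 0.305 below that of replicate 2, whereas 10023 shorter genes were 0.024 above. The same difference between replicates was 0.074 or less in size for the long genes in the other 4 groups. PTPN14 (13360 bases), PTPN4 (11090 bases) and PTPN13 (8548 bases) have the longest transcripts of the 10 members. Where the call of a member at Dex 4 h against vehicle changed without this library, both log2 changes are given.

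In vehicle the members spanned a wide range of levels. PTPN1 was the highest at 68.1 ± 4.43 RPKM (SD, n = 2), above 93.2% of the genes kept. PTPN12 followed at 51.3, PTPN11 at 38.9, PTPN23 at 25.0, PTPN14 at 23.3, PTPN9 at 13.1, PTPN21 at 10.5 and PTPN2 at 7.47 RPKM. PTPN4 (1.03) and PTPN13 (0.898) were near 1 RPKM and above 10.4% and 8.9% of the genes kept. Neighbours in this order did not overlap between samples except PTPN23 (23.9 and 26.0) with PTPN14 (24.7 and 21.8), and PTPN4 (1.01 and 1.05) lay just above PTPN13 (0.817 and 0.979). At the length of the canonical transcript these RPKM correspond to about 13430 to 35200 reads for PTPN1, but to 350 to 700 for PTPN4 and 360 to 2210 for PTPN13, where counting error alone reached 5.34% and 5.29%. Libraries did not mark strand, and exons of some members overlap a gene on the opposite strand, PTPN11 with RPL6 over 111 bases and PTPN13 with MAPK10 over 311 bases, where reads of the 2 genes cannot be told apart. MAPK10 itself was at or under 0.0399 RPKM, whereas RPL6 reached 107 RPKM. The part of RPL6 reads in the PTPN11 values was not tested.

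**Figure D1:**
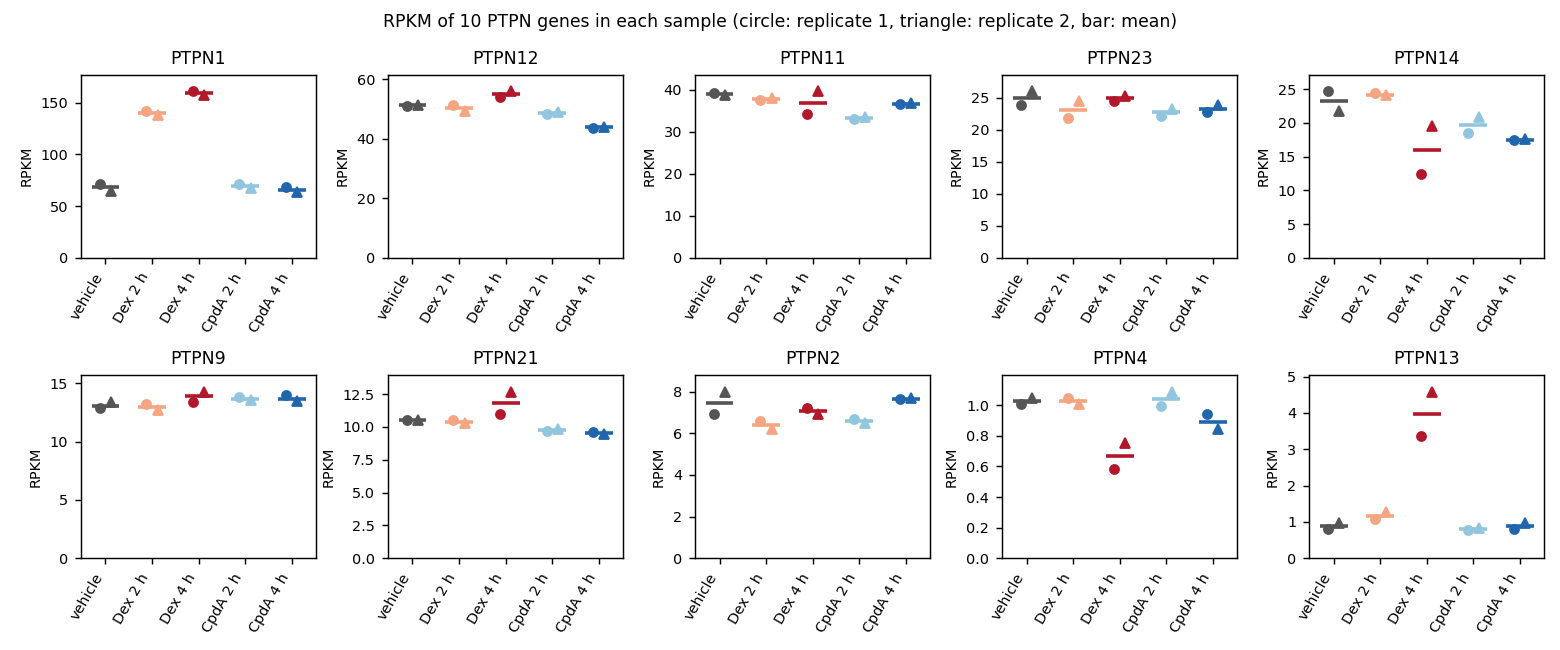
RPKM (vertical axis, linear from 0) of each PTPN gene in the 5 groups (horizontal axis), ordered by vehicle level. Circles are replicate 1, triangles replicate 2 and bars the mean. PTPN1 and PTPN13 lie above all other samples at Dex 4 h, and PTPN14 at Dex 4 h has its samples at 12.4 and 19.6 RPKM.

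After 2 h of Dex, PTPN1 was the 1 member that changed. Its level was 71.3 and 65 RPKM in vehicle and 142 and 138 RPKM at Dex 2 h, with no overlap. The log2 fold change was 1.04 with a 95% confidence interval of 0.914 to 1.163 (limma, adjusted p = 2.6e-06), an increase of 105%. Of all genes tested, 4.49% rose and 5.82% fell by this test, and 1.34% rose by over 2-fold as PTPN1 did. Without vehicle replicate 2 the log2 change of PTPN1 was 0.972, under 2-fold, and without vehicle replicate 1 it was 1.105. The other 9 members ran from -0.218 to 0.34 on the log2 scale, and the median of the 10, -0.018, was that of all genes, -0.018. PTPN13 had the highest of these values, at 1.07 and 1.26 RPKM against 0.817 and 0.979 in vehicle. These samples did not overlap, but the difference did not pass the test (adjusted p = 0.3 by limma). PTPN2, the closest relative of PTPN1, had the lowest, at 6.58 and 6.21 RPKM against 6.94 and 8.01 (log2 -0.22, adjusted p = 0.1 by limma).

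After 4 h of Dex, 4 of 10 members had changed, 2 upwards and 2 downwards. By the same test 9.26% of all genes rose and 18.2% fell, 27.4% in either direction. With median scaling of the samples the split was even, 12.6% rising and 12.6% falling. The median of the members was 0.036 and that of all genes -0.052 on the log2 scale. PTPN1 reached 161 and 157 RPKM, above every sample of the other groups. Its log2 fold change was 1.23 with an interval of 1.103 to 1.352 (limma, adjusted p = 4.2e-07), and it was 1.21 without Dex 4 h replicate 1. PTPN1 ranked 219th among the increases of the 12713 genes, and 2.1% of genes rose by over 2-fold.

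PTPN13, a large scaffold-like phosphatase with a FERM domain and several PDZ domains, showed the largest change of the members. It was at 3.36 and 4.59 RPKM at Dex 4 h and between 0.778 and 1.26 RPKM in the other 8 samples. The log2 fold change was 2.02 with an interval of 1.636 to 2.402 (limma, adjusted p = 2.6e-05), about a 4.05-fold increase, and PTPN13 ranked 96th among the increases. Leaving out Dex 4 h replicate 1, the library with low values for long transcripts, gave 2.24, and leaving out replicate 2 gave 1.80. The ratio of PTPN13 to PTPN14 RPKM was 0.033 and 0.0448 in vehicle and 0.271 and 0.234 at Dex 4 h.

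The members that fell at 4 h, PTPN14 and PTPN4, are also FERM phosphatases. PTPN14 was at 24.7 and 21.8 RPKM in vehicle, 24.4 and 24.1 at Dex 2 h, and 12.4 and 19.6 at Dex 4 h. Both Dex 4 h samples were below both vehicle samples, with replicate 1 far below replicate 2. The log2 fold change was -0.57 with a standard error of 0.170 (limma, adjusted p = 0.035). Without Dex 4 h replicate 1 it was -0.24 and the call was lost (adjusted p = 0.078). Leaving out vehicle replicate 1 or vehicle replicate 2 also ended the call, at -0.48 and -0.66.

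PTPN4 was at 1.01 and 1.05 RPKM in vehicle and at 0.584 and 0.754 at Dex 4 h, below all 8 other samples, whose lowest was 0.844. The log2 fold change was -0.56 with a standard error of 0.137 (limma, adjusted p = 0.014). It was -0.40 without Dex 4 h replicate 1 and -0.54 without vehicle replicate 2, and neither passed (adjusted p = 0.067 and 0.06). The part of the low long-transcript values of Dex 4 h replicate 1 in the changes of PTPN14 and PTPN4 was not tested. The last FERM member, PTPN21, was at 11.0 and 12.7 RPKM at Dex 4 h against 10.5 in both vehicle samples (log2 0.17, adjusted p = 0.092 by limma). Its log2 change was 0.28 without Dex 4 h replicate 1.

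The remaining members did not pass the test at Dex 4 h. PTPN12 was at 53.9 and 56.0 RPKM against 51.2 and 51.3 in vehicle, 0.10 higher on the log2 scale (adjusted p = 0.089 by limma). It was 0.13 higher without Dex 4 h replicate 1. Without Dex 4 h replicate 1 the count of members past the test was again 4 but held PTPN12 and PTPN21 in place of PTPN14 and PTPN4. PTPN11 was at 34.2 and 39.6 RPKM, on either side of its vehicle values of 39.1 and 38.7. Its log2 change was -0.079, and 0.026 without Dex 4 h replicate 1. PTPN2, PTPN9 and PTPN23 differed from vehicle by -0.07, 0.08 and -0.004 on the log2 scale, and the widest of their intervals ran from -0.236 to 0.087.

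**Figure D2:**
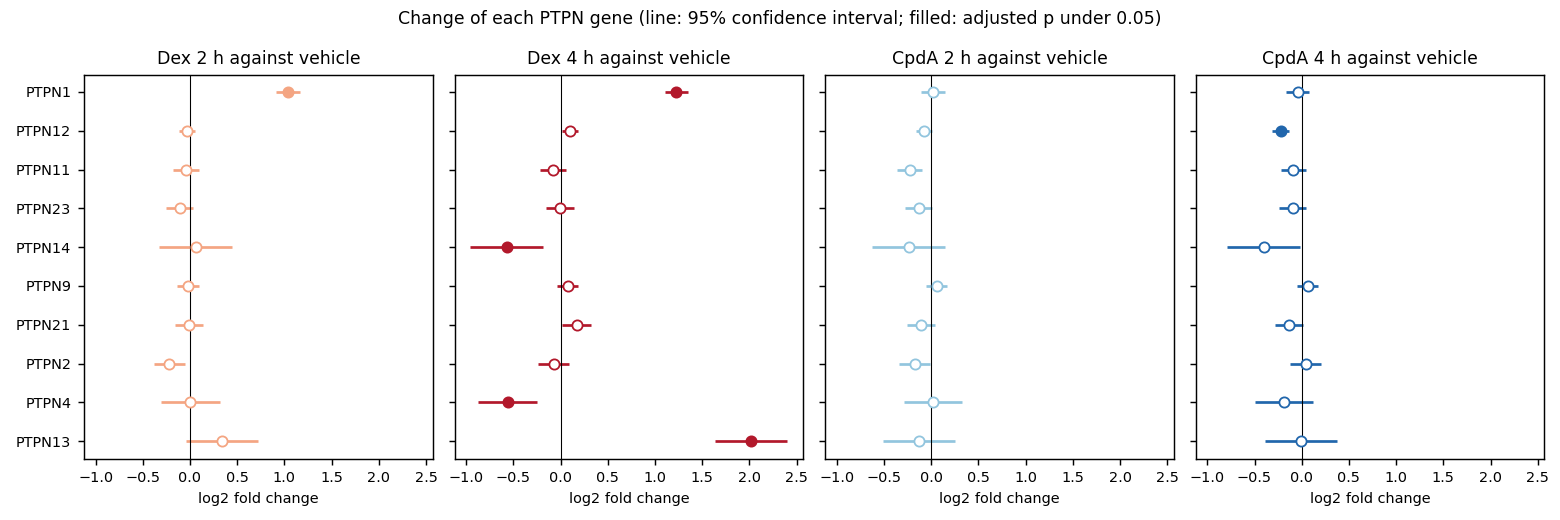
Log2 fold change against vehicle (horizontal axis) of each member, 1 panel per treatment, with its 95% confidence interval as a line and filled points where the adjusted p is under 0.05 by limma. PTPN1 stands at 1.04 and 1.23 under Dex and at 0.02 and -0.04 under CpdA, and PTPN13 stands at 2.02 at Dex 4 h.

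Few members passed the test with CpdA, and with 10 members such counts cannot be told apart from the shares of all genes. At CpdA 2 h 0 of 10 members passed the test by limma, which called 6.18% of all genes, 1.89% higher and 4.29% lower (2.32% and 2.89% with median scaling). At an unadjusted p under 0.05 there were 2 members and 2576 genes. The 2 members were PTPN11, at 33.0 and 33.4 RPKM against 39.1 and 38.7 in vehicle (log2 -0.23, adjusted p = 0.059 by limma), and PTPN2 (log2 -0.18, adjusted p = 0.2 by limma). PTPN1 was at 71.0 and 67.1 RPKM, within 0.021 of vehicle on the log2 scale, and its interval ran from -0.104 to 0.145.

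At CpdA 4 h the single call was PTPN12, which was at 43.7 and 44.0 RPKM against 51.2 and 51.3 in vehicle and 48.5 and 48.9 at CpdA 2 h. Its samples did not overlap with those of any other group. The log2 fold change was -0.225 with a standard error of 0.038 (limma, adjusted p = 0.0035), a fall of 14.4%, and it passed under all 13 alternatives tried. By the same test 6.76% of all genes rose and 13.8% fell, whereas with median scaling more rose than fell, 10.9% against 8.64%. PTPN14 was at 17.4 and 17.6 RPKM (log2 -0.405, adjusted p = 0.13 by limma), below both vehicle samples. PTPN1 was at 68.1 and 64.1 RPKM with an interval of -0.168 to 0.081 on the log2 scale.

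The ligands were compared directly at each time, at doses that were not matched. At 2 h, 1 member, PTPN1, was higher with Dex than with CpdA, by 1.02 on the log2 scale (limma, adjusted p = 2.5e-06), in a comparison where 7.53% of all genes were higher. At 4 h, 4 members were higher with Dex, against 15.4% of all genes, and no member was lower, against 18.0%. PTPN4 had the lowest value, -0.375 (adjusted p = 0.064 by limma), and was at -0.214 without Dex 4 h replicate 1. PTPN1 and PTPN13 differed by 1.27 and 2.02, PTPN12 by 0.32 and PTPN21 by 0.30. Without Dex 4 h replicate 1 these were 1.25, 2.24, 0.35 and 0.41, and PTPN11 passed too, at 0.11 (adjusted p = 0.043 by limma). For PTPN12 the samples were at 53.9 and 56.0 RPKM with Dex and 43.7 and 44.0 with CpdA, on either side of vehicle. For PTPN21 they were at 11.0 and 12.7 against 9.63 and 9.45, and the call was lost without CpdA 4 h replicate 2 (log2 0.29, adjusted p = 0.05 by limma). PTPN14 was at 12.4 and 19.6 RPKM with Dex and 17.4 and 17.6 with CpdA, and the difference of -0.165 (interval -0.55 to 0.221) had no stable direction. It was 0.164 without Dex 4 h replicate 1, and without replicate 2 it was -0.493 and passed the test (adjusted p = 0.0027 by limma).

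Between 2 h and 4 h of Dex, PTPN13 rose by 1.68 on the log2 scale (limma, adjusted p = 0.00044), where 4.55% of all genes rose. PTPN14 fell by 0.631 and PTPN4 fell by 0.565, where 9.02% of all genes fell (6.81% rose and 5.98% fell with median scaling), and both calls were lost without Dex 4 h replicate 1 (-0.303 and -0.404) and without either Dex 2 h sample. PTPN1 was 0.19 higher at 4 h than at 2 h and did not pass (adjusted p = 0.054 by limma), though its samples did not overlap. Without Dex 4 h replicate 1, 3 members passed from 2 h to 4 h, all upwards, PTPN13 at 1.90, PTPN21 at 0.29 and PTPN12 at 0.16. With CpdA, PTPN12 fell by 0.15 between the times (limma, adjusted p = 0.035), where 7.2% of all genes fell (5.33% with median scaling, against 6.42% that rose), and the call was lost without any 1 of the 4 samples. The difference between the ligands in their change from 2 h to 4 h passed for PTPN13 (1.56, adjusted p = 0.0067) and PTPN12 (0.277, adjusted p = 0.019), both upwards, as for 3.04% of all genes by limma. For PTPN1 it was 0.253 (adjusted p = 0.099 by limma). The PTPN12 call was lost without Dex 2 h replicate 2 (0.248) and without any 1 of the CpdA samples (0.271 to 0.284).

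PTPN1 was then set against its relatives within each sample, by fitting log2 of each gene minus log2 of PTPN1. With Dex all 9 relatives changed differently from PTPN1, at 2 h by -1.257 to -0.699 and at 4 h by -1.797 for PTPN14 to 0.792 for PTPN13, the 1 relative with a higher value than PTPN1. With a pseudocount of 1 the PTPN13 difference was 0.165 and did not pass (adjusted p = 0.24 by limma). That holds for nearly any gene, since 98.1% and 98.0% of all genes differed from PTPN1 in the same way. Between the ligands all 9 differed too, except that PTPN13 at 4 h did not with a pseudocount of 1 (0.125, adjusted p = 0.37 by limma), against 97.8% of all genes at 2 h and 97.8% at 4 h. With CpdA 0 of 9 relatives differed from PTPN1 at 2 h, where 3.3% of all genes did, and 0 of 9 at 4 h, where 10.8% did (limma, adjusted p of 0.18 and 0.14 or more).

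The summed RPKM of the 9 relatives was 171 and 172 in vehicle, 161 to 180 with Dex and 153 to 158 with CpdA. PTPN1 made up 29.4% and 27.5% of the sum of the 10 members in vehicle, 45.9% and 45.2% after 2 h of Dex and 50.2% and 46.7% after 4 h. With CpdA it made up 29.3% to 31.5%. The ratio of PTPN1 to PTPN2, both of which act on JAK kinases, was 10.3 and 8.11 in vehicle, 21.6 and 22.2 after 2 h of Dex, 22.4 and 22.7 after 4 h, and between 8.33 and 10.6 with CpdA.

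**Figure D3:**
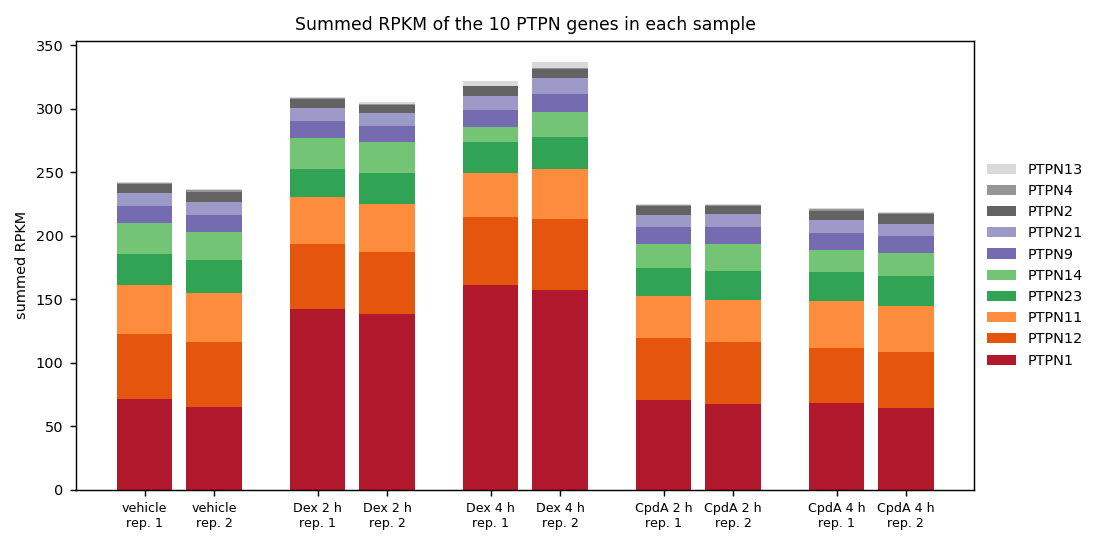
Summed RPKM of the 10 members (vertical axis) in each sample (horizontal axis), stacked by gene with PTPN1 at the bottom. The PTPN1 segment is 64.1 to 71.3 RPKM in vehicle and CpdA samples and 138 to 161 in Dex samples. The stack above it is at 153 to 180, lowest in the CpdA samples.

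The genes most like PTPN1 over the 10 samples were found by the root mean square distance between centred log2 profiles, among 10882 genes with at least 1 RPKM in every sample. RIPK2, a kinase of innate immune signalling, was nearest at 0.063, followed by the transcription factor ZBTB7B (0.076), the volume-regulated anion channel subunit LRRC8A (0.078), KLHL4 (0.080) and SNAI2, a repressor active in the epithelial to mesenchymal transition (0.087). Their log2 changes were 0.92 to 1.09 at Dex 2 h and 1.12 to 1.21 at Dex 4 h. With CpdA the 5 ran from -0.06 to 0.13 at 2 h, and LRRC8A and SNAI2 stood at -0.25 and -0.26 at 4 h. The nearest profiles to PTPN13 were farther away, PLXNA2 at 0.241, ABLIM3 at 0.278 and ACSL1 at 0.296, and all 3 were above PTPN13 at Dex 2 h (0.62 to 0.93 against 0.34). Those nearest to PTPN14 were FYCO1, POMK and SPTLC3, at 0.105 to 0.108. These distances describe the same 10 samples and carry no test.

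**Figure D4:**
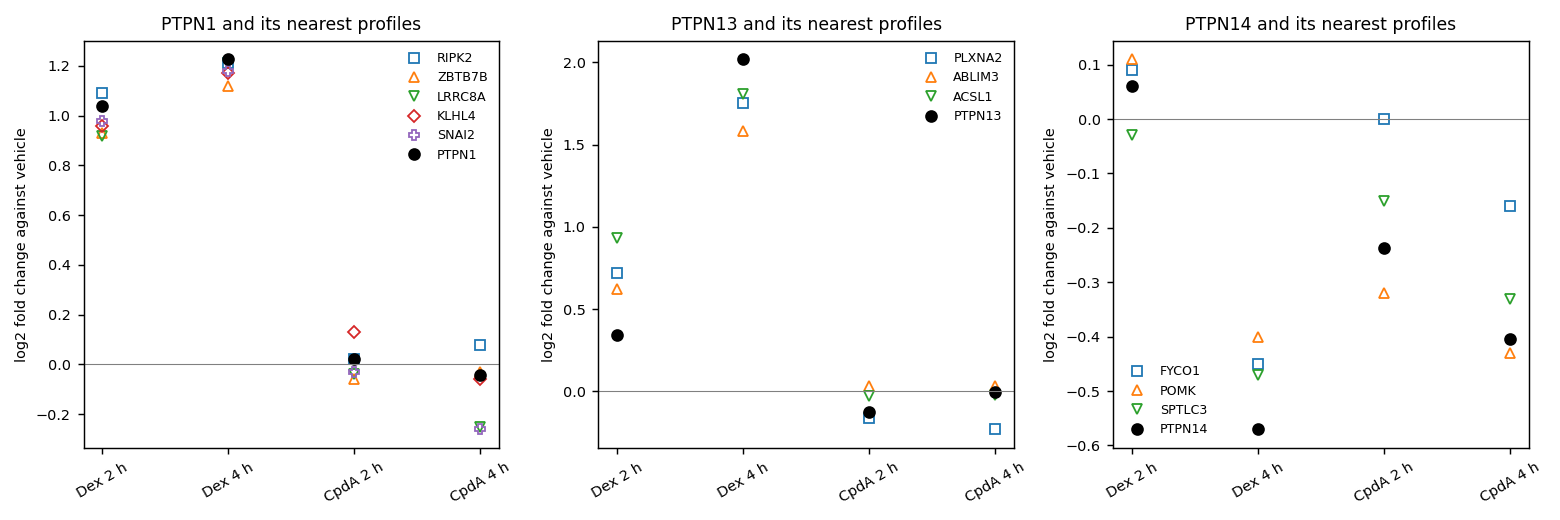
Log2 fold change against vehicle (vertical axis) in the 4 treatments (horizontal axis) of PTPN1, PTPN13 and PTPN14 (black circles) and of the genes nearest to each (open symbols). The 5 genes nearest to PTPN1 lie at 0.92 to 1.09 at Dex 2 h, and PTPN13 is below its nearest genes at Dex 2 h and above them at Dex 4 h.

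Other phosphatases were examined as lists. Of 9 further non-receptor phosphatases 5 were listed in the data and 4 passed the filter on low values, and none of the 4 passed the test against vehicle in any treatment, with log2 changes of -0.383 to 0.271 under limma, although 1 rose at Dex 4 h with median scaling. An unadjusted p under 0.05 was found for 1 of the 4 at Dex 4 h, 1 at CpdA 4 h and 0 at both 2 h times. Of all genes, 4.49% rose and 5.82% fell at Dex 2 h, and 27.4% were called at Dex 4 h. With CpdA 6.18% were called at 2 h, and 6.76% rose and 13.8% fell at 4 h. Counts of 0 among 4 genes cannot be told apart from these shares. PTPN22, a phosphatase of lymphocytes, fell by 0.638 on the log2 scale between Dex 2 h and Dex 4 h (limma, adjusted p = 0.044), at 0.566 and 0.634 against 0.833 and 1.17 RPKM. In this comparison 9.02% of all genes fell. The PTPN22 call was lost under several alternatives, among them leaving out Dex 2 h replicate 2 (-0.42) or Dex 4 h replicate 1 (-0.57) and median scaling (-0.58). Of 20 receptor phosphatases 12 passed the filter. With Dex 1 rose and 1 fell at 2 h, and 1 rose and 5 fell at 4 h, where 9.26% and 18.2% of all genes did. Their median at 4 h was -0.198 against -0.052 for all genes, but -0.071 with 4 falling without Dex 4 h replicate 1, and -0.374 with 8 falling without replicate 2. PTPRJ, a receptor phosphatase that acts on growth factor receptors, rose from 20.1 and 18.8 RPKM to 33.4 and 32.5 at 2 h and 31.0 and 37.0 at 4 h (log2 0.76 and 0.80). PTPRE fell from 10.7 and 11.5 RPKM to 7.35 and 6.79 and then 4.40 and 4.48 (log2 -0.64 and -1.30). PTPRB, PTPRR and PTPRH, all near 1 RPKM, changed by -0.674, -0.668 and -0.596 at 4 h, and PTPRR lost its call without vehicle replicate 1 (-0.53). With CpdA 0 of 12 passed at 2 h by limma, where 6.18% of all genes did, and 1 had an unadjusted p under 0.05. At CpdA 4 h 2 fell (13.8% of all genes fell), PTPRJ among them (14.7 and 14.3 RPKM, log2 -0.42). Between the ligands at 4 h PTPRJ and PTPRE differed by 1.22 and -1.27, the first higher and the second lower with Dex.

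The substrates and partners of these phosphatases were taken by role. Of 16 kinases and STAT genes that passed the filter, 2 rose and 3 fell at Dex 4 h, near the 27.4% called over all genes. The median of the 16 was -0.062, but 0.013 without Dex 4 h replicate 1 and 0.008 with median scaling. JAK2, a substrate of PTPN1, rose by 0.76 from 1.06 and 1.07 RPKM to 1.68 and 2.07. Of 17 docking proteins and members of the Ras pathway, 3 rose and 2 fell at Dex 2 h, where 4.49% and 5.82% of all genes did, and 7 rose and 4 fell at Dex 4 h, where 9.26% and 18.2% did. The medians were 0.049 and 0.088, the second 0.14 without Dex 4 h replicate 1 and 0.035 without replicate 2. IRS2, an adaptor of the insulin receptor, went from 9.05 and 8.78 RPKM to 43.8 and 44.7 after 2 h of Dex and 35.1 and 42.8 after 4 h (log2 2.30 and 2.11). IRS1, its relative, fell from 13.2 and 14.6 RPKM to 7.48 and 7.12, and then 5.93 and 7.13 (log2 -0.92 and -1.08). SOS1, an activator of Ras that acts downstream of PTPN11, rose by 0.59 and 0.66, and its call at 2 h was lost without any 1 of the vehicle or Dex 2 h samples (0.55 to 0.64).

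SPRY4 and SPRY1, Sprouty genes that restrain Ras signalling, differed between the ligands. SPRY4 was at 40.3 and 29.6 RPKM in vehicle, 102 and 116 after 2 h of Dex, 69.7 and 84.5 after 4 h, and 17.2 and 17.8 at CpdA 4 h (log2 1.65, 1.15 and -0.98). SPRY1 was at 4.85 and 4.32 RPKM in vehicle and fell with CpdA to 2.97 and 2.88 at 2 h and 1.70 and 1.86 at 4 h (log2 -0.63 and -1.31), while its Dex samples were at 4.10 to 4.85. SPRY2, another Sprouty gene, fell by 0.628 at Dex 4 h. At CpdA 2 h SPRY2 was at 99.4 and 95.2 RPKM against 78.0 and 63.7 in vehicle (log2 0.465, adjusted p = 0.016 by limma), a call lost without vehicle replicate 2 (0.319) or either CpdA 2 h sample (0.434 and 0.496), and at CpdA 4 h it was at 63.4 and 59.5 RPKM. In the direct comparison at 2 h, IRS2 and SPRY4 were 2.16 and 1.70 higher with Dex than with CpdA, and SPRY2 and IRS1 differed by -0.887 and -0.70. At 4 h, IRS2 was 2.25, SPRY4 was 2.13 and SPRY1 was 1.16 higher with Dex (limma, adjusted p = 4.1e-06 or less). Between 2 h and 4 h of CpdA, SPRY4, SPRY1 and SPRY2 fell, with log2 changes of -0.93, -0.69 and -0.66, and only the SPRY4 call was lost by leaving out 1 sample (-0.864 without CpdA 2 h replicate 2). With CpdA 1 of the 17, SPRY2, rose and 3 fell at 2 h, where 1.89% and 4.29% of all genes did, and 5 fell at 4 h, where 13.8% did, with medians of -0.053 and -0.141 where those of all genes were -0.016 and -0.037.

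**Figure D5:**
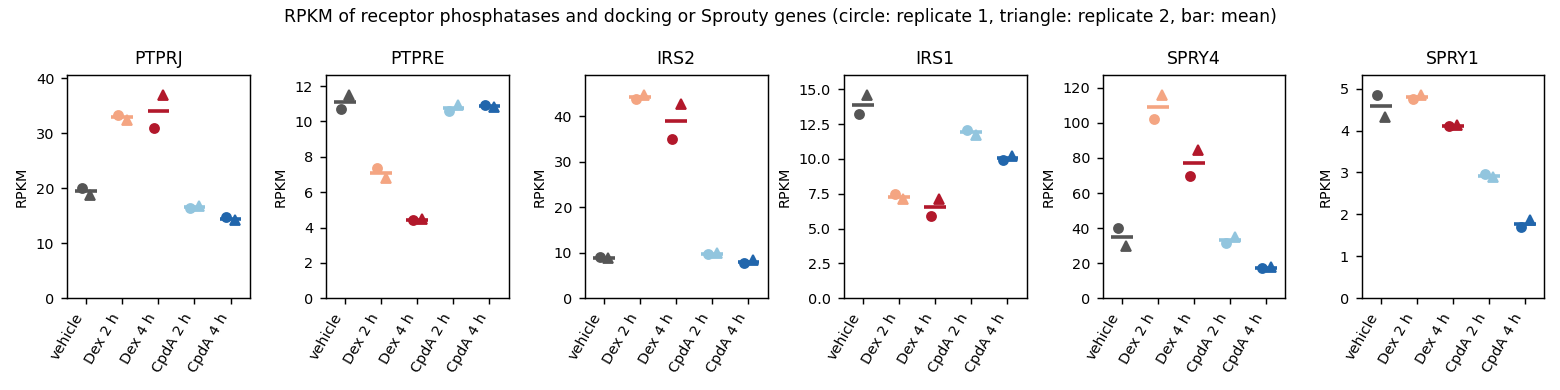
RPKM (vertical axis, linear from 0) of 2 receptor phosphatases, 2 insulin receptor adaptors and 2 Sprouty genes in the 5 groups (horizontal axis), with circles for replicate 1, triangles for replicate 2 and bars for the mean. PTPRJ, IRS2 and SPRY4 are higher in the Dex samples than in vehicle, and SPRY1 is lowest at CpdA 4 h, at 1.70 and 1.86 RPKM. These genes were chosen for the plot after their values were seen.

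Of 11 adhesion partners of PTPN12 and related genes, 2 rose and 3 fell at Dex 2 h, 3 rose and 4 fell at Dex 4 h, 1 fell at CpdA 2 h and 4 fell at CpdA 4 h. The shares of all genes that fell were 5.82%, 18.2%, 4.29% and 13.8%, and those that rose with Dex were 4.49% and 9.26%. The median of the 11 was -0.017 at Dex 4 h, 0.053 with median scaling, and -0.182 at CpdA 4 h. The substrate BCAR1 fell by 0.576 at Dex 4 h and by 0.506 at CpdA 4 h, and PXN, the other, was 0.176 higher at Dex 4 h and 0.261 lower at CpdA 4 h. LPXN and PSTPIP2 fell at Dex 4 h, with log2 changes of -0.80 and -0.72. For the Hippo partners of PTPN14, 1 of 6 rose and 1 fell at Dex 4 h (median 0.037, but 0.143 without Dex 4 h replicate 1 and -0.06 without replicate 2), and YAP1 was at 37.5 to 45.9 RPKM in all samples. For the ESCRT partners of PTPN23, 1 of 6 rose and 1, STAM, fell by 0.398 at Dex 4 h (median 0.08, and 0.018 with 0 rising without Dex 4 h replicate 1). With CpdA 1 of 6 Hippo partners rose and 1 fell at 2 h and 1 fell at 4 h, and 0 of 6 ESCRT partners passed the test by limma at either time. An unadjusted p under 0.05 was found for 1 ESCRT partner at CpdA 2 h and 0 at 4 h. After 2 h of CpdA 1.89% of all genes rose and 4.29% fell, and after 4 h these shares were 6.76% and 13.8%. Each list gene named above for Dex 4 h against vehicle or against CpdA passed the test without Dex 4 h replicate 1 as well.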

How the data were processed

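RNA-seq was done on 10 of the 22 samples of the series, and the ChIP samples were not analysed here. The authors made libraries with the Illumina TruSeq RNA kit, sequenced 50-base single-end reads, aligned them with TopHat 2.0.13 and estimated abundances in Partek Genomics Suite 6.6. They deposited RPKM values, 1 per gene symbol and sample, normalized for transcript length and mapped reads. How transcripts were combined into symbols is not given in the sources used here. The processing notes name hg19.

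Mapped reads were estimated from the steps in RPKM times length of short features, of which 91.3% to 94.5% per sample were whole reads within 2%. Groups came from the sample labels, and the authors describe the samples of each group as biological replicates. The headers of the vehicle files carry 2 h for replicate 1 and 4 h for replicate 2, which the labels do not give, so the spread of vehicle may include time, and leaving out each vehicle replicate gives the values against the other. Values were transformed to log2(RPKM + 0.1), a scale that understates changes of low genes. The 12713 genes that reached 0.5 RPKM in 2 or more samples were fitted with limma 3.58.1 in R 4.3.3 (5 group means, and an eBayes variance prior that follows abundance), with Benjamini-Hochberg adjustment over these genes and a threshold of 0.05. No further normalization between samples was done. A second fit used log2 of each gene minus log2 of PTPN1. The fit was tested on simulated data for Dex 4 h against vehicle with 12713 genes, of which 200 were changed. It recovered 195 at a log2 change of 1.2, 175 at 0.6 and 53 at 0.3, with 11, 11 and 0 false calls. The simulated noise was independent between samples and held no length effect like that of Dex 4 h replicate 1. Changes were placed only in genes with a vehicle mean above 0 on the log2 scale. These rates therefore do not cover lower genes or such a library.

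The members, the gene lists and the naming rule were chosen with earlier results of these data known. All members were named, the 5 genes nearest to PTPN1 and the 3 nearest to each other member past a fold change of 1.5, and from each list genes past the test and a fold change of 1.5, at most 4 by size. BCAR1, PXN, STAM and YAP1 fall outside this rule and were named after their values were seen. Alternatives were pseudocounts of 1 and 0.01, other filters, quantile normalization, median scaling, only the samples of a contrast, no trend, the replicate number as a block and each replicate left out. The gene lists and named list genes were run under scaling and without each Dex 4 h replicate after the data were seen. Promoter sequences are RefSeq (GRCh38.p14), and gene positions and transcript lengths are GENCODE v44 lifted to GRCh37, with a length for 86.3% of the genes kept.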

Additional observations from a re-analysis of the deposited data

Results flagged for a closer look

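A change from 2 h to 4 h, or a difference between the ligands in that change, passed a test (limma, 10 samples) for 4 members. The direct comparisons of the ligands at each time, which PTPN1 and PTPN21 also passed, are given in the report. The change from Dex 2 h to Dex 4 h was 1.679 on the log2 scale for PTPN13 (adjusted p = 0.00044), with both 4 h samples above both 2 h samples. For PTPN14 it was -0.631 (adjusted p = 0.041) and for PTPN4 -0.565 (adjusted p = 0.028), both with the 4 h samples below the 2 h samples. Both calls were lost without Dex 4 h replicate 1 and without either Dex 2 h sample, as given in the report. For PTPN12 the change from CpdA 2 h to CpdA 4 h was -0.15 (adjusted p = 0.035).

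The change from 2 h to 4 h differed between Dex and CpdA by 1.556 for PTPN13 (adjusted p = 0.0067) and by 0.277 for PTPN12 (adjusted p = 0.019). PTPN13 was 1.68 higher at 4 h with Dex and 0.12 higher with CpdA. PTPN12 was 0.127 higher with Dex and differed by -0.15 with CpdA, its levels being 51.3 and 49.2 RPKM after 2 h and 53.9 and 56.0 RPKM after 4 h of Dex, against 48.5 and 48.9 RPKM after 2 h and 43.7 and 44.0 RPKM after 4 h of CpdA. The cause of these differences was not tested.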

How the results depend on the processing

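PTPN1 passed at Dex 2 h, at Dex 4 h and between the ligands at both times under all 13 alternatives of each, and PTPN13 at Dex 4 h under all 12 in which it was tested (log2 1.38 to 2.24). PTPN14 at Dex 4 h lost its call under 7 of 13 and PTPN4 under 4 of 12. At their lowest samples counting error was 5.34% for PTPN4 and 5.29% for PTPN13, and the part of depth in their standard errors was not tested. PTPN14 between the ligands at 4 h was 0.164 without Dex 4 h replicate 1 and -0.493 without replicate 2. For single members, 257 values kept their direction and side of the threshold, 36 lost and 6 gained a call and 6 changed sign. Of the counts, 255 stayed within 1.5 times and 65 did not, which does not say which genes they hold, and except where a library was left out or fewer genes or samples entered, the cause was not tested.

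At RPKM of at least 1 in every sample, a filter that drops PTPN4 and PTPN13, members past the test numbered 2 at Dex 4 h, 1 at CpdA 2 h (PTPN11) and 1 for the interaction of ligand and time, and PTPN1 from Dex 2 h to 4 h passed at 0.189 (adjusted p = 0.047). With no filter, 1 member passed from Dex 2 h to 4 h. With median scaling 6 passed there and 0 from CpdA 2 h to 4 h, PTPN1 from Dex 2 h to 4 h passed at 0.243, and PTPN1 at CpdA 4 h changed sign to 0.022. With no trend, 0 passed from CpdA 2 h to 4 h. With only the samples of a contrast, members past the test numbered 2 at Dex 4 h, 1 at CpdA 2 h, 2 at CpdA 4 h, 4 between the ligands at 2 h, 1 from Dex 2 h to 4 h and 3 from CpdA 2 h to 4 h, and 1 relative (PTPN14) differed from PTPN1 at CpdA 4 h. The genes called numbered 1775 against 3487 at Dex 4 h, 480 against 786 at CpdA 2 h, 696 against 1725 from Dex 2 h to 4 h and 3500 against 1577 from CpdA 2 h to 4 h.

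Same-numbered samples deviated together with a mean correlation of 0.054 over 10 pairs of groups (-0.057 to 0.198, with 3 over 0.1). The labels do not say whether same-numbered samples were paired, and correlations this low cannot decide it. With the replicate block, 2 members differed between the ligands at 2 h (PTPN1 and PTPN13), 1 relative differed from PTPN1 at CpdA 2 h (PTPN11) and 1 at CpdA 4 h (PTPN12), PTPN1 from Dex 2 h to 4 h passed at 0.189 (adjusted p = 0.011) and its interaction at 0.253 (adjusted p = 0.022).

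Leaving out 1 replicate gave 1 to 2 members at Dex 2 h, 2 to 5 at Dex 4 h, 0 to 1 at CpdA 2 h, 1 to 1 at CpdA 4 h, 1 to 1 and 3 to 6 between the ligands at 2 h and 4 h, 1 to 5 from Dex 2 h to 4 h, 0 to 0 from CpdA 2 h to 4 h and 1 to 4 for the interaction. PTPN1 ran from 0.167 to 0.21 from Dex 2 h to 4 h (0.207 and past the test without Dex 4 h replicate 2), from -0.046 to 0.087 at CpdA 2 h, negative without vehicle replicate 2 (-0.046) and without CpdA 2 h replicate 1 (-0.02), and from -0.109 to 0.023 at CpdA 4 h, positive without vehicle replicate 1 (0.023) and without CpdA 4 h replicate 2 (0.001). Relatives that differed from PTPN1 at CpdA 2 h numbered 0 to 1. Genes called ran from 766 to 1505 at Dex 2 h, 2772 to 4772 at Dex 4 h, 216 to 1193 at CpdA 2 h, 1190 to 2168 at CpdA 4 h, 959 to 1085 and 2759 to 5183 between the ligands, 592 to 3440 from Dex 2 h to 4 h, 261 to 299 from CpdA 2 h to 4 h and 293 to 2132 for the interaction.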

Other observations

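Across 10972 genes with a transcript length, the log2 difference of Dex 4 h replicate 1 from replicate 2 had a Spearman correlation of -0.64 with length, and the same correlation was 0.08 in vehicle, -0.26 at Dex 2 h, -0.37 at CpdA 2 h and -0.26 at CpdA 4 h. Genes share each library, so these values describe the libraries and carry no test. Against the vehicle mean, genes with transcripts of at least 8000 bases stood at a median of -0.305 in Dex 4 h replicate 1 and 0.010 in replicate 2, and shorter genes at -0.034 and -0.061. The receptor phosphatase PTPRF was at 51.6 RPKM in Dex 4 h replicate 1 and at 63.6 to 69.5 in the other 9 samples, PTPRG at 11.5 against 14.5 to 15.9, and the receptor kinase EGFR at 26.7 and 47.9 in the 2 Dex 4 h samples against 28.5 to 36.2 elsewhere. These 3 genes were named after their values were seen.

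Of the luminal marker genes, GATA3, a transcription factor, was at 6.6 and 6.11 RPKM at Dex 4 h, 5.40 and 5.19 in vehicle, 4.28 and 3.93 at Dex 2 h and 3.75 to 4.07 with CpdA. It was 0.617 higher at Dex 4 h than at Dex 2 h on the log2 scale (limma, adjusted p = 0.00057), with no overlap between the samples. CD14, a marker of monocytes, was at 2.17 to 2.89 RPKM in all samples and did not pass the test against vehicle.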
